A study of Mus musculus with 8 samples.

Results

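The antiviral interferon-stimulated genes described here are 50 genes measured in mouse bone marrow-derived macrophages (BMDMs), cells grown into macrophages from bone marrow. The genes were taken by their symbols from a table of 54532 genes. The rule uses no measured value, but the list of symbols was chosen with earlier results of these data known. All 50 were found once, and all 50 were among the 12234 genes that passed the filter on low counts. RNA was sequenced in 4 groups of 2 libraries, numbered 1 and 3 in the labels. Cells of the group IL-4 then LPS were given interleukin 4 (IL-4), a product of T helper 2 cells, for 24 h at 20 ng/ml, were washed, and were then given lipopolysaccharide (LPS), a glycolipid of the outer membrane of bacteria that Tlr4 senses, for 4 h at 100 ng/ml. The LPS group received 100 ng/ml LPS for 4 h without IL-4. The IL-4 group had 20 ng/ml IL-4 for 24 h, and control cells neither agent. The strain, sex and age of the mice, the growth factor of the cultures, and whether the IL-4 and LPS groups were washed are not given in the sources used here. The series title speaks of trained immunity induced by IL-4, that is, of an altered response of innate cells to a later challenge.

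Interferon-stimulated genes are the arm of innate immunity that limits viruses inside cells. LPS bound to Tlr4 activates the transcription factor IRF3 through the adaptor TRIF, and IRF3 together with NF-kB switches on Ifnb1, which encodes interferon beta. Secreted interferon beta binds a receptor made of the Ifnar1 and Ifnar2 chains on the same and on neighbouring cells. The receptor's kinases then activate transcription factors, STAT2 with IRF9 among them, that bind interferon-stimulated response elements (ISREs) in promoters of many interferon-induced genes. IL-4 signals through another receptor and STAT6. Of the 50 genes, Ifnb1, Ifnar1 and Ifnar2 are the ligand and the receptor chains, and the other 47 are genes known to be induced by interferon.

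The libraries held 7924932 to 9431852 counts. Values are CPM (read counts scaled to a common library total), with library totals adjusted by edgeR's trimmed mean of M-values (TMM), and each pair of values gives replicate 1 and then replicate 3. Adjusted p-values come from edgeR's quasi-likelihood test across all 12234 genes, and a gene is said to rise or fall where this p is under 0.05. Xist, transcribed from the inactive X chromosome of female cells, had 2936 to 4465 reads in the 4 libraries numbered 1 and 0 reads in those numbered 3. Ddx3y, on the Y chromosome, had 0 reads in the libraries numbered 1 and 543 to 643 in those numbered 3. Replicate number and sex of the cells therefore cannot be told apart, and p-values measure the spread between these libraries. All 10 macrophage markers on the list had more than 10 reads in all. Their summed level was 12837 to 18013 CPM in IL-4 then LPS, 20747 to 23128 CPM in LPS, 12632 to 17403 CPM in IL-4 and 18511 to 25168 CPM in control libraries. Of 7 T and NK cell markers, 6 had no read (Cd3e, Cd3g, Cd3d, Trac, Ncr1 and Nkg7). Cd79a of B cells, Mcpt8, Fcer1a and Ms4a2 of mast cells and basophils, Ly6g and Elane of neutrophils, and Hbb-bs of red cell precursors also had none. Over 10 reads in all were found for 2 of 7 neutrophil, 1 of 7 T and NK cell, 1 of 4 B cell and 4 of 4 stromal cell markers. The stromal sum was 6.23 to 7.44 CPM in IL-4 then LPS, 4.06 to 4.84 CPM in LPS, 3.17 to 4.28 CPM in IL-4 and 3.07 to 4.93 CPM in control libraries.

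LPS raised every gene of the set, with or without IL-4 beforehand. In LPS against control, 50 of 50 rose and 0 fell, where 21.8% of all tested genes rose and 18.6% fell. Their median log2 fold change was 3.64, beside -0.01 over all tested genes, and 48 of the 50 rose at least 2-fold, as did 14.6% of all genes. Likewise 50 of 50 rose and 0 fell in IL-4 then LPS versus IL-4, where 20.7% of all genes rose and 18.6% fell. There the median was 3.52, beside -0.04 over all tested genes, and all 50 rose at least 2-fold, as did 13.6% of all genes. With library totals alone in place of TMM, the split over all genes in LPS against control was 1547 rising and 5745 falling, in place of 2663 and 2279, and 48 of the 50 genes rose. In each of the 50, both LPS-treated libraries lay above both of their reference libraries in each arm, as they did for 35.9% of all genes in LPS against control and for 34.8% in IL-4 then LPS versus IL-4. In bulk RNA a change in the share of cells that express a gene and a change in RNA per cell cannot be told apart. Markers of other cells moved with LPS too. The 6 conventional dendritic cell markers, Flt3 and Ccr7 among them, summed to 8.95 to 13.7 CPM in IL-4 then LPS, 6.49 to 11.9 CPM in LPS, 1.27 to 2.05 CPM in IL-4 and 0.692 to 1.13 CPM in control libraries. Of the 6 markers of plasmacytoid dendritic cells, a strong source of interferon, Klk1 had no read, and the sum was 60.1 to 86.0 CPM in IL-4 then LPS, 71.5 to 75.7 CPM in LPS, 39.4 to 57.7 CPM in IL-4 and 39.9 to 49 CPM in control libraries. Their part in the rise was not tested.

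**Figure D1:**
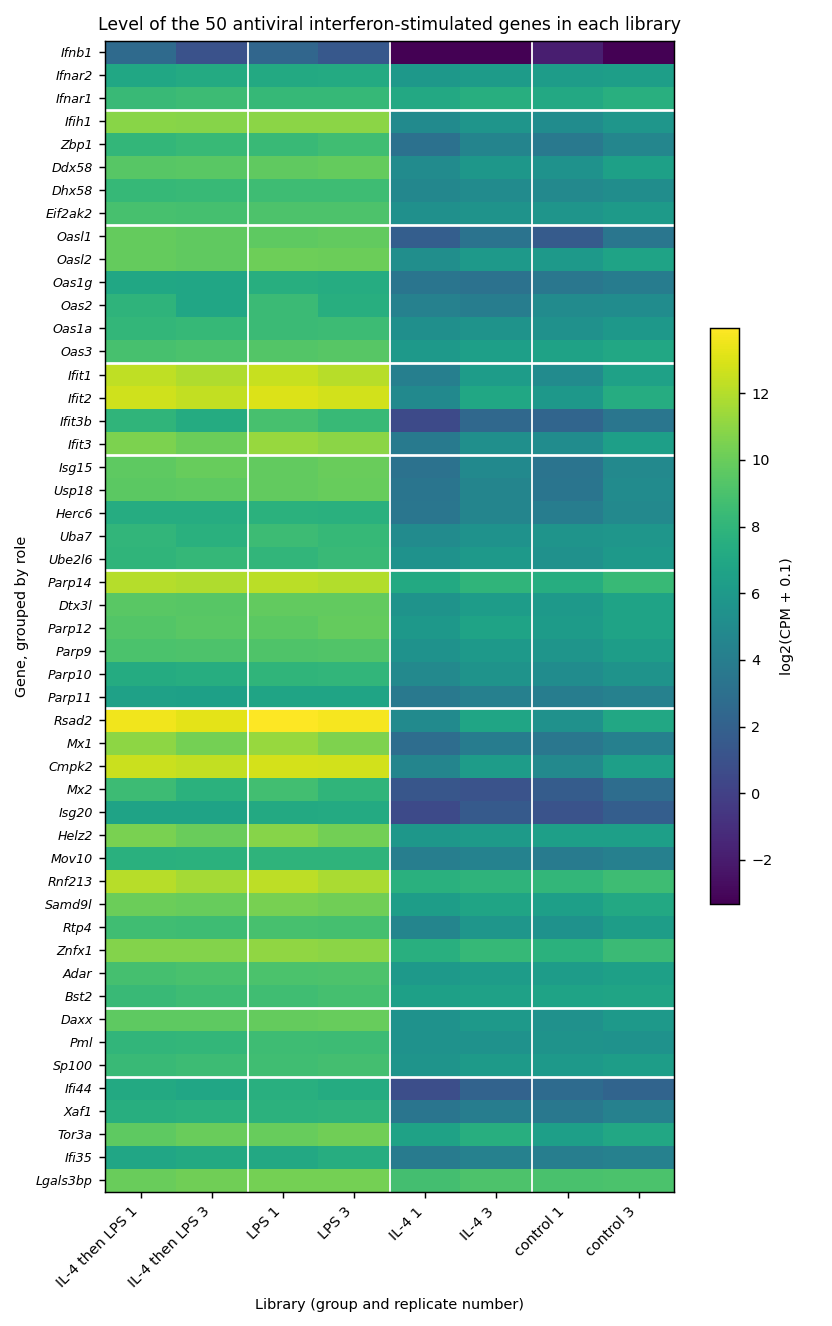
Level of the 50 genes in each of the 8 libraries, as log2 of CPM plus 0.1 (colour). Rows are genes grouped by role, from ligand and receptor at the top to other induced genes at the bottom, and columns are libraries named by group and replicate number. The 4 LPS-treated columns on the left are brighter than the 4 columns on the right in all rows.

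As a share of all reads, the set took up 5.49% and 4.43% in IL-4 then LPS and 6.32% and 5.31% in LPS libraries, against 0.309% and 0.445% in IL-4 and 0.383% and 0.54% in control libraries. These reads were unevenly spread. Rsad2, Ifit2, Cmpk2 and Ifit1, chosen after their values were seen as the highest of the set after LPS, held 47.2% and 43.3% of the set's reads in IL-4 then LPS and 48.1% and 46.4% in LPS libraries. In IL-4 libraries they held 4.02% and 10.3%, and in control libraries 5.26% and 10.6%. In the cells without LPS these 4 genes thus held a smaller part of the set's reads than after LPS.

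The ligand had 0 to 2 reads per library without LPS, and the receptor chains had the smallest fold changes of the set. Ifnb1 (ENSMUSG00000048806, chromosome 4, 88522025 to 88522774, minus strand, mm10) had the lowest mean CPM per kilobase of the 50 genes in all 4 groups. It had 42 and 15 reads in IL-4 then LPS libraries and 36 and 19 in LPS libraries, against 0 and 0 in IL-4 and 2 and 0 in control libraries. That is 6.13 and 1.95 CPM in IL-4 then LPS and 5.04 and 2.63 CPM in LPS libraries. The ratio of LPS to control was 41.4 (exact binomial 95% interval 10.9 to 351, over 55 and 2 reads), and IL-4 then LPS was at least 29-fold higher than IL-4, taking 3 reads over the whole IL-4 group as the floor. Both increases passed the test (adjusted p 0.00906 and 0.005). The interval and the floor pool the reads of the 2 libraries of a group. They cover counting error only, not the spread between libraries, and no molecular identifiers are mentioned in the sources used here. In IL-4 against control the reads were too few for a fold.

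Ifnar1 (ENSMUSG00000022967, chromosome 16, 91485238 to 91507441, plus strand, mm10) had the smallest LPS response of the set without IL-4. It had 297 and 299 CPM in LPS libraries, against 138 and 194 CPM in control libraries, and 334 and 363 CPM in IL-4 then LPS libraries, against 137 and 183 CPM in IL-4 libraries. Its log2 fold changes were 0.84 ± 0.21 (SE, adjusted p 0.0132) in LPS against control and 1.12 ± 0.21 (adjusted p 0.0039) in IL-4 then LPS versus IL-4. The first of these was lost without LPS replicate 3 (0.84, adjusted p 0.0537), without control replicate 1 (0.56, adjusted p 0.112) and with library totals alone (0.25, adjusted p 0.257). Ifnar2 had 145 and 151 CPM in LPS libraries, against 75.6 and 83.1 CPM in control libraries, and 123 and 151 CPM in IL-4 then LPS libraries, against 60.0 and 70.8 CPM in IL-4 libraries. It rose by 0.90 ± 0.15 (adjusted p 0.00237) and 1.07 ± 0.15 (adjusted p 0.0011) on the log2 scale, and with library totals alone the first became 0.30 (adjusted p 0.0712). For neither chain did the LPS-treated libraries overlap their reference libraries in either arm.

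The start site windows of the ligand, a receptor chain and the induced genes are shown here because interferon signalling acts through ISREs. Each window runs from 250 bases before to 50 bases after a RefSeq start site (GRCm38.p6), on the strand of the gene, 5′ to 3′, in lower case. Capitals mark matches to the ISRE core on either strand, which is GAAA, any 2 bases and GAAA again, or TTTC, any 2 bases and TTTC when the match is on the other strand. The windows of Ifnb1 (chr4:88522745-88523044, minus strand) and Ifnar1 (chr16:91484965-91485264, plus strand) hold no match to it. The window of Isg15 (chr4:156200769-156201068, minus strand) holds 3 overlapping matches that begin at -78, -72 and -66 from the start site, and that of Rsad2 (chr12:26456403-26456702, minus strand) holds 1, at -120.
Ifnb1: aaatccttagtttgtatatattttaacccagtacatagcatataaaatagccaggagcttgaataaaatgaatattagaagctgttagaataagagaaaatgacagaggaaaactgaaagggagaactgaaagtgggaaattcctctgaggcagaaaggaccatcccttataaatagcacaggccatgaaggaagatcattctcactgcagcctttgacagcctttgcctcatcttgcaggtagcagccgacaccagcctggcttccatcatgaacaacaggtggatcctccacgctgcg
Ifnar1: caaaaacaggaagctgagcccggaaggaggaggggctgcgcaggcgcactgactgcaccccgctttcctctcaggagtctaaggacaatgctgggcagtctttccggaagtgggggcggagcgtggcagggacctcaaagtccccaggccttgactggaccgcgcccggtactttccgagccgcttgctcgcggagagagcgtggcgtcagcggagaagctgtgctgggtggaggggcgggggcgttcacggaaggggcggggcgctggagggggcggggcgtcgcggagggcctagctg
Isg15: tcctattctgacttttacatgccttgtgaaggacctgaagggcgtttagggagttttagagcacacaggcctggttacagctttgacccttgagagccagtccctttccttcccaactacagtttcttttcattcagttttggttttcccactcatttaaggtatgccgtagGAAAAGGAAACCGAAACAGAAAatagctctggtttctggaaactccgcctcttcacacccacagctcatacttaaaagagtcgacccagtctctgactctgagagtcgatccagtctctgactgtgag
Rsad2: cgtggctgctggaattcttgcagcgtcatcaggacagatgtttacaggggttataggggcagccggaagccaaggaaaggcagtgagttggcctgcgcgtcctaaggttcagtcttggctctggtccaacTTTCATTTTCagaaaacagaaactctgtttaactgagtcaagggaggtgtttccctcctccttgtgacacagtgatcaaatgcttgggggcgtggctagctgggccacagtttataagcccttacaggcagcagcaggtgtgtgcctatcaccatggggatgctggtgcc

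Windows were found for 39 of the 50 genes. The ISRE core was present in 13 of the 39, or 33.3%, against 3.99% of all 27025 genes with a window, and 7 of the 13 had more than 1 match. The STAT6 site, TTC and GAA with any 4 bases between, was in 5 of 39 (12.8%, against 8.01%). Of the NF-kB site only the form GGGA and TTTCC with any base between was searched, and 0 of 39 held it (against 0.466%). Other forms of the NF-kB site were not searched, and the letters gggaaattcc in the Ifnb1 window do not match the form used. All motifs were searched on both strands, and windows of 1 gene can overlap. A match is a run of letters, not a shown binding site, and a window without one says only that these letters are not in it. The 13 genes with an ISRE match had a median log2 fold change of 3.72 in LPS against control and the 26 without had 3.45, a description of these lists without a test.

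The sensors of viral nucleic acid rose together. Where a gene has a pair of log2 fold changes, the first is LPS against control and the second IL-4 then LPS versus IL-4, each with its SE. All 5 rose in both arms, with a median log2 fold change of 3.70 in LPS against control and 4.05 in IL-4 then LPS versus IL-4. Ifih1 (ENSMUSG00000026896, chromosome 2, 62595798 to 62646255, minus strand, mm10) encodes MDA5, a cytoplasmic helicase that binds long RNA duplexes. It had 2001 and 1923 CPM in LPS libraries, against 33.3 and 54.5 CPM in control libraries, and 1889.8 and 1798 CPM in IL-4 then LPS libraries, against 30.0 and 50.4 CPM in IL-4 libraries. Its log2 fold changes were 5.48 ± 0.35 (adjusted p 2.4e-05) and 5.52 ± 0.35 (adjusted p 2.6e-05), and the LPS-treated libraries stood clear of the others in each arm. Zbp1, a sensor of left-handed nucleic acid that can start necroptosis, had 332 and 395 CPM in LPS libraries, against 12.5 and 24.3 CPM in control libraries, and 274 and 320.0 CPM in IL-4 then LPS libraries, against 8.57 and 21.7 CPM in IL-4 libraries (4.30 ± 0.47 and 4.30 ± 0.47 on the log2 scale, adjusted p 0.000274 and 0.000295). In untreated and IL-4 cells the level of Zbp1 was higher in replicate 3. Ddx58, which encodes RIG-I, rose by 3.70 ± 0.38 and 4.05 ± 0.38. Dhx58, which encodes the related LGP2, rose by 3.60 ± 0.19 and 3.43 ± 0.18, and Eif2ak2, the kinase PKR that stops translation on RNA duplexes, by 3.27 ± 0.18 and 3.42 ± 0.18.

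The 6 genes of the OAS family split by size of response. The active members make 2′-5′ oligoadenylates that switch on the RNA-degrading enzyme RNase L, while Oasl1 and Oasl2 are OAS-like proteins. Oasl1 (ENSMUSG00000041827, chromosome 5, 114923240 to 114937915, plus strand, mm10), which in mice limits translation of Irf7, had 791 and 878 CPM in LPS libraries, against 2.94 and 10.8 CPM in control libraries, and 919.9 and 838 CPM in IL-4 then LPS libraries, against 3.39 and 9.61 CPM in IL-4 libraries. It rose by 6.94 ± 0.68 and 7.08 ± 0.68 on the log2 scale (adjusted p 0.000159 and 0.000154), the largest change of the family in each arm. Oasl2 had 1116 and 1073 CPM in LPS libraries, against 63.7 and 102 CPM in control libraries, and 937 and 841 CPM in IL-4 then LPS libraries, against 37.0 and 65.3 CPM in IL-4 libraries (3.72 ± 0.33 and 4.12 ± 0.34). Oas1a and Oas1g lie 8642 bases apart on chromosome 5 and share sequence. Of all 31-base words of their GENCODE M21 transcripts, 68.8% of those of Oas1a and 55.1% of those of Oas1g occurred in another gene, mostly in each other, so that their separate counts are uncertain. Oas1a had 349 and 368 CPM in LPS libraries, against 43.0 and 59.1 CPM in control libraries, and 275 and 301 CPM in IL-4 then LPS libraries, against 38.4 and 47.4 CPM in IL-4 libraries. Oas1g had 184 and 165 CPM in LPS libraries, against 11.5 and 15.0 CPM in control libraries, and 124 and 116 CPM in IL-4 then LPS libraries, against 10.3 and 8.98 CPM in IL-4 libraries. For neither gene did the LPS-treated libraries overlap the others. Oas1a rose by 2.81 ± 0.20 and 2.75 ± 0.20 and Oas1g by 3.72 ± 0.17 and 3.64 ± 0.17. The other family members, Oas2 and Oas3, rose by 3.01 ± 0.39 and 2.52 ± 0.21 in LPS against control and by 3.35 ± 0.40 and 2.77 ± 0.21 in IL-4 then LPS versus IL-4.

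The IFIT family had the largest median response of the role groups, 5.88 in LPS against control and 6.06 in IL-4 then LPS versus IL-4. IFIT proteins bind viral RNA that lacks the cap modification of host messages and hold back its translation. Their 4 genes stand in a row on chromosome 19 in the order Ifit2, Ifit3, Ifit3b and Ifit1. Ifit1 had 5689 and 4360.4 CPM in LPS libraries, against 31.3 and 94.8 CPM in control libraries, and 5104 and 3717 CPM in IL-4 then LPS libraries, against 17.8 and 73.9 CPM in IL-4 libraries (6.32 ± 0.83 and 6.59 ± 0.84, adjusted p 0.000707 and 0.000637). Ifit2 had 8437 and 6985 CPM in LPS libraries, against 59.0 and 166 CPM in control libraries, and 6554 and 5163 CPM in IL-4 then LPS libraries, against 28.9 and 127 CPM in IL-4 libraries (6.10 ± 0.82 and 6.23 ± 0.82). Within each group without LPS, replicate 3 was the higher for both genes, and within each group with LPS it was the lower.

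Ifit3 and Ifit3b share 61.8% and 55.3% of the 31-base words of their transcripts with other genes, chiefly with each other, so a read from either can be credited to the other. Ifit3 had 2499 and 1928 CPM in LPS libraries, against 32.8 and 84.4 CPM in control libraries, and 1514 and 1086 CPM in IL-4 then LPS libraries, against 13.4 and 39.0 CPM in IL-4 libraries. Ifit3b had 476 and 318 CPM in LPS libraries, against 4.93 and 10.9 CPM in control libraries, and 254 and 156 CPM in IL-4 then LPS libraries, against 1.34 and 5.53 CPM in IL-4 libraries. Ifit3 rose by 5.24 ± 0.64 and 5.63 ± 0.66, and Ifit3b by 5.66 ± 0.62 and 5.89 ± 0.65. Their promoters are alike as well, which is why both are shown (Ifit3 chr19:34583279-34583578 and Ifit3b chr19:34607707-34608006, plus strand, GRCm38.p6, capitals as above). Each holds 2 ISRE matches on the other strand, starting 34 bases apart, at -156 and -122 in Ifit3 and at -188 and -154 in Ifit3b. Slid by 32 bases and compared without gaps, the windows had the same base at 201 of 268 positions.
Ifit3: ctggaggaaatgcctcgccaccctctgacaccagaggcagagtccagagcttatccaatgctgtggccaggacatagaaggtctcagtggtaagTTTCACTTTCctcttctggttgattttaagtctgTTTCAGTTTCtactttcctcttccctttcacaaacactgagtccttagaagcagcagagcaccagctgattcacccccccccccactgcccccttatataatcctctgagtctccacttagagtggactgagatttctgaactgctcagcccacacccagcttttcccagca
Ifit3b: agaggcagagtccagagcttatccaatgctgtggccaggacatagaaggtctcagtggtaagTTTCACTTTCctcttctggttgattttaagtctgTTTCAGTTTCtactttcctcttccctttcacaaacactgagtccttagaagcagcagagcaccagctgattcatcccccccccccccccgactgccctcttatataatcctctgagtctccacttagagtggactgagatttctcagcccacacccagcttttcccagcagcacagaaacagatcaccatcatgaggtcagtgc

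The ISG15 pathway, which attaches the ubiquitin-like protein ISG15 to other proteins, rose in all its steps. Isg15 (ENSMUSG00000035692, chromosome 4, 156199424 to 156200818, minus strand, mm10) had 901 and 1043 CPM in LPS libraries, against 9.78 and 27.3 CPM in control libraries, and 818 and 986 CPM in IL-4 then LPS libraries, against 8.93 and 29.8 CPM in IL-4 libraries. It rose by 5.72 ± 0.68 and 5.54 ± 0.67 (adjusted p 0.000424 and 0.000498). Usp18, which removes ISG15 and also blocks the interferon receptor at Ifnar2, had 871 and 969 CPM in LPS libraries, against 10.6 and 31.5 CPM in control libraries, and 763 and 819.6 CPM in IL-4 then LPS libraries, against 10.4 and 23.1 CPM in IL-4 libraries (5.46 ± 0.58 and 5.56 ± 0.58). The modifier and its remover thus had the largest responses of the pathway. The conjugating enzymes rose by less. Uba7, the activating enzyme, rose by 2.70 ± 0.22 and 2.59 ± 0.22, Ube2l6, the carrier, by 2.47 ± 0.26 and 2.28 ± 0.26, and Herc6, the main ISG15 ligase of mice, by 3.20 ± 0.37 and 3.28 ± 0.38.

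The ADP-ribosyltransferases of the PARP family and Dtx3l, the ubiquitin ligase that partners Parp9, all rose, with medians of 3.25 in LPS against control and 3.23 in IL-4 then LPS versus IL-4. Parp14 had 4462 and 4041 CPM in LPS libraries, against 174 and 320.5 CPM in control libraries, and 4115 and 3735 CPM in IL-4 then LPS libraries, against 141 and 257 CPM in IL-4 libraries (4.11 ± 0.39 and 4.30 ± 0.39, adjusted p 0.000137 and 0.000122). Parp14 is also known as a co-activator of STAT6, the factor of IL-4. Dtx3l had 891 and 885 CPM in LPS libraries, against 64.0 and 103 CPM in control libraries, and 751 and 696 CPM in IL-4 then LPS libraries, against 47.0 and 76.1 CPM in IL-4 libraries (3.41 ± 0.30 and 3.56 ± 0.30). Dtx3l and Parp9 are transcribed in opposite directions on chromosome 16 from starts 681 bases apart. Each start lies within the other gene, so their gene bodies overlap there. Parp9 rose by 3.20 ± 0.25 and 3.35 ± 0.26. Without a stated strand in the counting, reads from the overlap cannot be told apart. Parp10, Parp11 and Parp12 rose by 2.70 ± 0.27, 2.63 ± 0.20 and 3.29 ± 0.30 in LPS against control and by 2.16 ± 0.26, 2.57 ± 0.20 and 3.11 ± 0.30 in IL-4 then LPS versus IL-4.

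The 13 antiviral effectors held the largest single responses. Rsad2 (ENSMUSG00000020641, chromosome 12, 26442746 to 26456452, minus strand, mm10) encodes viperin, which makes a chain-terminating nucleotide that stops viral polymerases. It had 15717 and 13138 CPM in LPS libraries, against 43.4 and 133 CPM in control libraries, and 12345 and 9422 CPM in IL-4 then LPS libraries, against 30.0 and 115 CPM in IL-4 libraries. Its log2 fold change in LPS against control, 7.36 ± 0.85 (adjusted p 0.000368), was the largest of the set, and it was 7.23 ± 0.84 (adjusted p 0.000408) in IL-4 then LPS versus IL-4. Cmpk2, a nucleotide kinase that supplies viperin's substrate, is the neighbour of Rsad2 on chromosome 12, and their starts lie 12752 bases apart on opposite strands. It rose by 6.94 ± 0.78 and 6.81 ± 0.77. Mx1, a dynamin-like GTPase that blocks influenza and related viruses, had 2464 and 1526 CPM in LPS libraries, against 11.2 and 18 CPM in control libraries, and 2078 and 1290.0 CPM in IL-4 then LPS libraries, against 7.23 and 14.9 CPM in IL-4 libraries (7.10 ± 0.53 and 7.25 ± 0.53). Mx2, which the table classes as a polymorphic pseudogene, rose by 6.06 ± 0.49 and 7.01 ± 0.53. Isg20, an RNA exonuclease, rose by 5.73 ± 0.32 and 5.57 ± 0.32, and Helz2, a helicase, by 4.15 ± 0.25 and 4.31 ± 0.26. Bst2 (tetherin), which holds budding virions at the cell surface, had the smallest change of the effectors, 2.05 ± 0.15 and 1.98 ± 0.15. The others ranged from 2.71 for Adar, the RNA-editing deaminase, to 3.91 for Mov10, an RNA helicase, in LPS against control.

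Genes of the PML nuclear bodies, which coat incoming viral DNA, rose too. Daxx, a histone chaperone of these bodies, had 929 and 987 CPM in LPS libraries, against 42.6 and 62.2 CPM in control libraries, and 805 and 814 CPM in IL-4 then LPS libraries, against 45.3 and 64.0 CPM in IL-4 libraries (4.19 ± 0.25 and 3.89 ± 0.25). Pml, which builds the body, had 375 and 357 CPM in LPS libraries, against 47.3 and 44.1 CPM in control libraries, and 269 and 273 CPM in IL-4 then LPS libraries, against 45.3 and 43.6 CPM in IL-4 libraries (3.0 ± 0.13 and 2.61 ± 0.13). Sp100 rose by 2.52 ± 0.20 and 2.59 ± 0.20. Among the remaining induced genes, Ifi44 had 192 and 160.3 CPM in LPS libraries, against 6.32 and 4.65 CPM in control libraries, and 140.5 and 119.5 CPM in IL-4 then LPS libraries, against 1.70 and 4.44 CPM in IL-4 libraries (5.0 ± 0.35 and 5.40 ± 0.37). Xaf1, a pro-apoptotic partner of XIAP, had 218 and 224 CPM in LPS libraries, against 11.9 and 19.0 CPM in control libraries, and 184 and 194 CPM in IL-4 then LPS libraries, against 10.4 and 15.8 CPM in IL-4 libraries (3.84 ± 0.27 and 3.85 ± 0.27). Ifi35, Tor3a and Lgals3bp rose by 3.15 ± 0.21, 3.30 ± 0.35 and 1.29 ± 0.17 in LPS against control and by 2.98 ± 0.21, 2.70 ± 0.34 and 1.15 ± 0.17 in IL-4 then LPS versus IL-4.

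**Figure D2:**
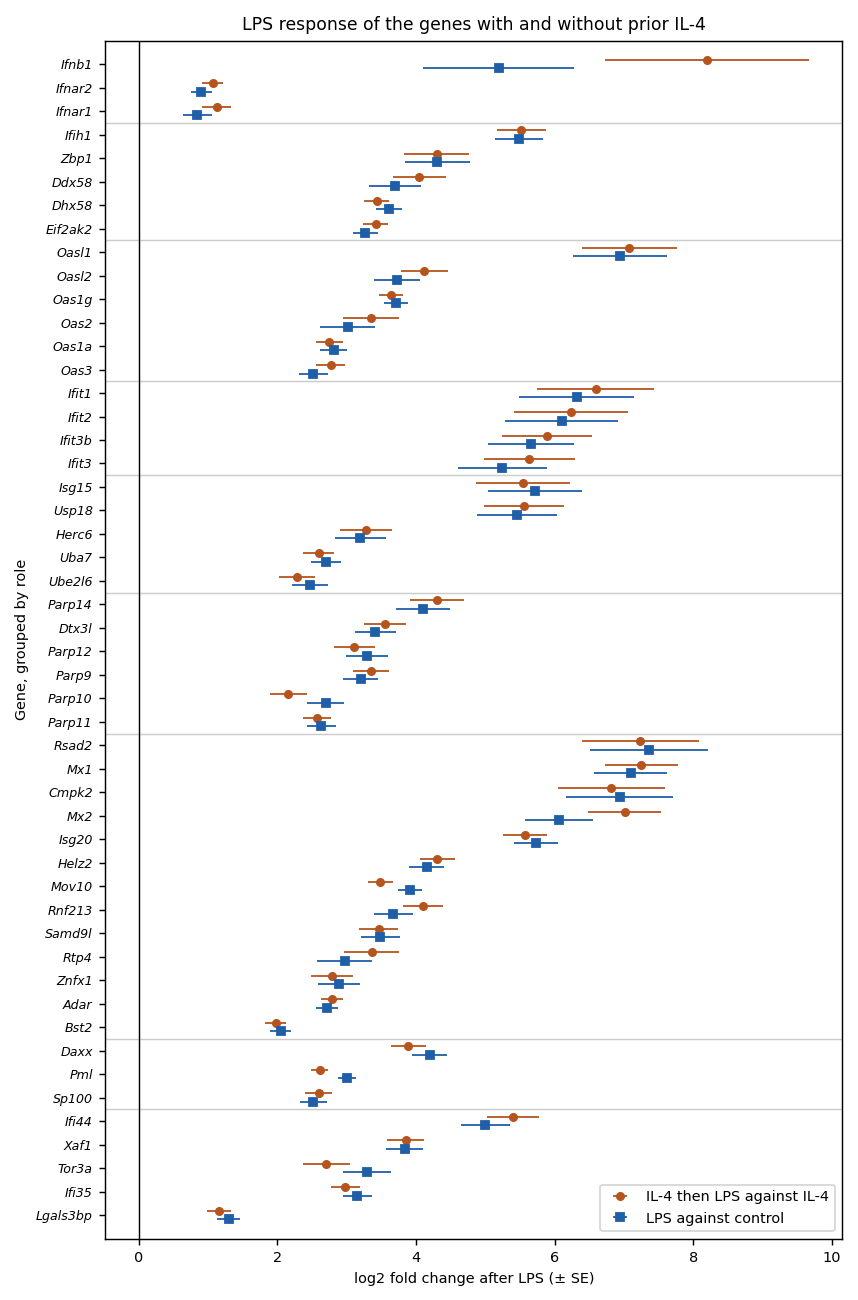
Log2 fold change of each gene after LPS, with its SE as a bar, in IL-4 then LPS versus IL-4 (circles) and in LPS against control (squares), for the 50 genes grouped by role. All points lie right of 0, from 0.84 for Ifnar1 to 7.36 for Rsad2 in LPS against control, and the fitted value of Ifnb1 rests on 0 to 2 reads without LPS and is no measure of its fold.

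The order of the levels changed with LPS. Compared per kilobase of gene length, on the scale of mean CPM per kb in the group, Rsad2 (2511), Ifit1 (1661), Ifit2 (1492) and Cmpk2 (1338) led in IL-4 then LPS. The same genes led in LPS, with Rsad2 at 3328, Ifit2 at 1964, Ifit1 at 1892 and Cmpk2 at 1691. In control macrophages the leading genes were Lgals3bp (185), a secreted glycoprotein, Bst2 (116), Znfx1 (34.0), an RNA helicase on mitochondria, and Ifit3 (33.6).

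**Figure D3:**
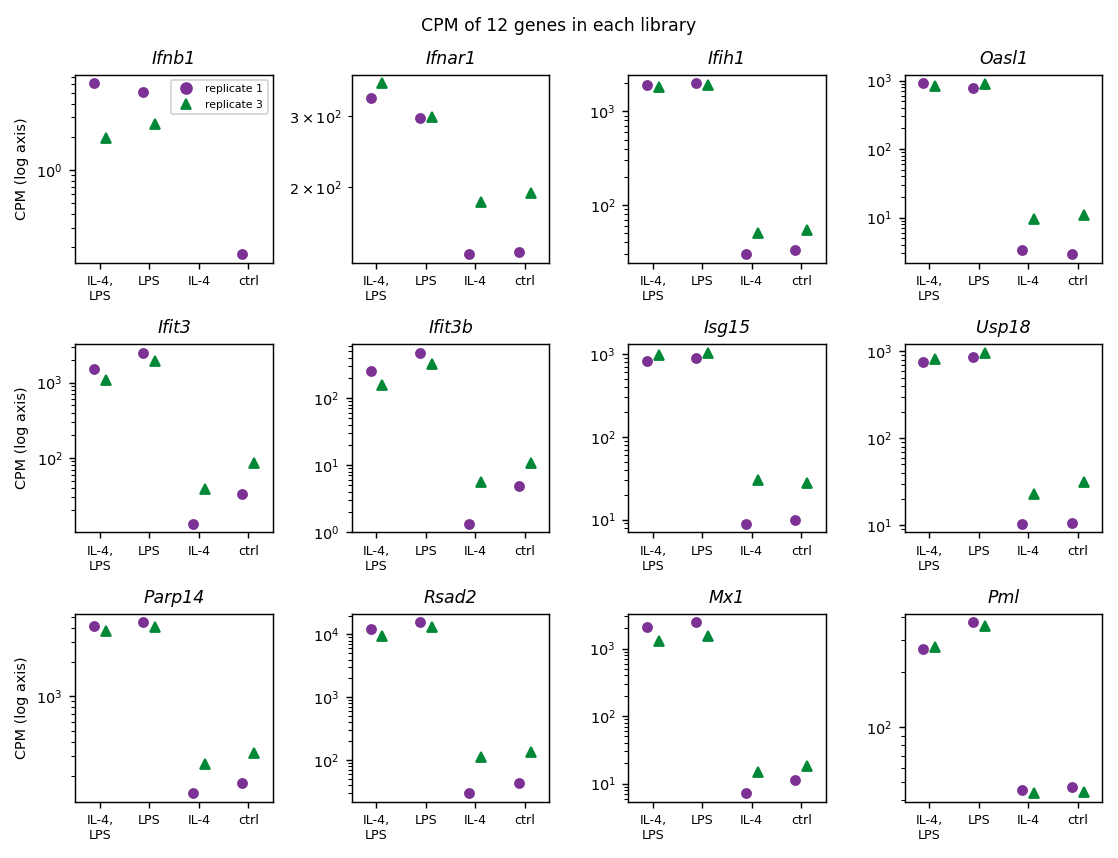
CPM of 12 genes in each library, on a log axis that differs between panels, with the groups IL-4 then LPS, LPS, IL-4 and control from left to right, replicate 1 as circles and replicate 3 as triangles. Libraries in which Ifnb1 had 0 reads (both IL-4 libraries and control replicate 3) have no point, and for Rsad2, Oasl1 and Isg15 replicate 3 lies above replicate 1 in the IL-4 and control groups.

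The cells without LPS differed between replicates. Replicate 3 was the higher library for 45 of 49 genes in the IL-4 group and for 47 of 49 in control, Ifnb1 left out, with a median difference (replicate 3 over replicate 1, log2) of 0.59 in IL-4 and 0.62 in control. Over all genes compared, 49.7% were higher in replicate 3 in IL-4 and 50.6% in control. After LPS no such lean was seen. Replicate 3 was the higher for 25 of 50 genes in IL-4 then LPS (median 0.00) and for 23 of 50 in LPS (median -0.01). Summed over the 50 genes, the level was 2485 and 3798 CPM in IL-4 and 3065 and 4526 CPM in control libraries, so the replicate numbers differed by more than the groups did. With 1 library of each number in a group, these are descriptions without a test.

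**Figure D4:**
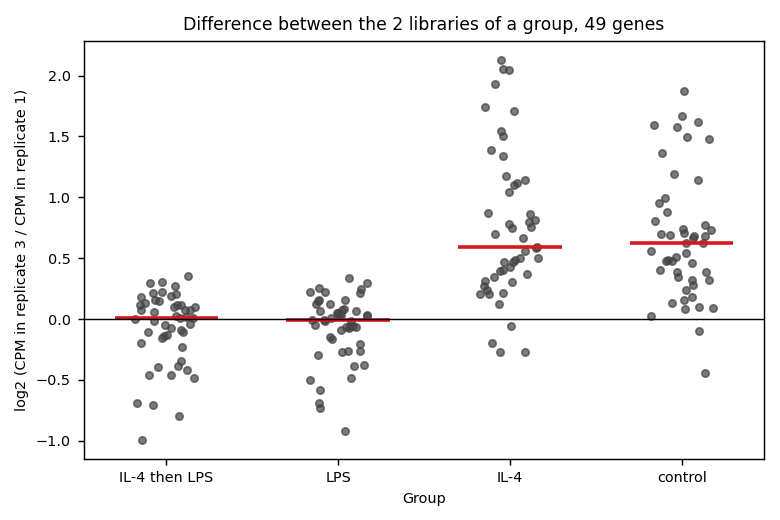
Log2 ratio of replicate 3 to replicate 1 for each of 49 genes (points, Ifnb1 left out) in the groups IL-4 then LPS, LPS, IL-4 and control, with the median as a red line. The medians are near 0 in the 2 LPS-treated groups and near 0.6 in IL-4 and control.

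In the main edgeR fit, IL-4 without LPS changed no gene of the set past the threshold. Without the filter on low counts, 0 of the 50 rose and 6 fell, where 360 of all genes passed. In the main fit of IL-4 against control, 0 of 50 rose and 0 fell, where 0.0572% of all genes rose and 0.00817% fell. DESeq2 also called 0 of the 50. With so few of all genes called, a count of 0 does not set these 50 apart. At an unadjusted p under 0.05 there were 5 of the 50, all lower in IL-4, and 7.29% of all genes. Fold changes were negative for 45 of the 50, as for 6123 of all 12234 genes, with a median of -0.30, beside -0.000367 over all genes. Since replicate 3 was the higher in both groups, leaving out a library changes the balance of the numbers as well. The median was -0.66 without IL-4 replicate 3 and -0.63 without control replicate 1, against 0.01 without IL-4 replicate 1 and -0.01 without control replicate 3. Within replicate number 1, 44 of the 50 were lower in IL-4, as were 49.4% of all genes, and within number 3, 40 were, as were 50.1%. In both numbers 39 of the 50 were lower in IL-4, as were 32.7% of all genes, while 12 had both IL-4 libraries below both control libraries, as did 19.2%. The 95% intervals held 0 for 45 of the 50, and for 25 of the 50 they lay within a 2-fold change either way, and in the other 25 they reached beyond it. The 10 macrophage markers summed to 12632 to 17403 CPM in IL-4, against 18511 to 25168 CPM in control libraries, and their part in these values was not tested.

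The smallest unadjusted p-values in IL-4 against control belonged to Oas3, Oas1g and Eif2ak2. Oas3, the longest of the OAS enzymes, had 65.2 and 86.1 CPM in IL-4 libraries, against 100.2 and 133 CPM in control libraries, a log2 fold change of -0.62 ± 0.20 (adjusted p 0.517), and both IL-4 libraries lay below both control libraries. Oas1g gave -0.46 ± 0.17 (adjusted p 0.599), again without overlap. Eif2ak2 had 41.3 and 47.7 CPM in IL-4 libraries, against 50.7 and 66.5 CPM in control libraries, a change of -0.40 ± 0.17 (adjusted p 0.68). By role, the IFIT family had the lowest median, -0.85, and the OAS family came next at -0.54. The nuclear body genes had a median of -0.04. Isg15 (0.07), Ube2l6 (0.04), Mov10 (0.19), Daxx (0.06) and Tor3a (0.34) had positive values. The order of the roles was not tested.

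After LPS, cells with IL-4 beforehand had slightly lower levels of most of these genes, and no difference passed the threshold. In IL-4 then LPS against LPS, 0 of 50 rose and 0 fell by edgeR, where 0.049% of all genes rose and 0.0163% fell, and DESeq2 again called 0. Fold changes were negative for 47 of the 50, as for 6610 of all 12234 genes, with a median of -0.26, beside -0.03 over all genes. The 50 genes were measured in the same libraries, so their signs are not separate observations. Only Ifnar1 (0.23), Ifnb1 (0.07) and Oasl1 (0.08) were positive. Both libraries of IL-4 then LPS lay below both LPS libraries for 35 of the 50, as for 19.8% of all genes, and 46 were lower in both replicate numbers, as were 35.7% of all genes. The median stayed between -0.28 and -0.26 when each library of the 2 groups compared was left out in turn, with 43 to 46 genes negative. The control and IL-4 libraries hold no value of this comparison, so leaving them out says little about it. In summed level the set stood at 63412 and 54196 CPM in IL-4 then LPS, against 76928 and 67632 CPM in LPS libraries. The 10 macrophage markers were also lower in sum, at 12837 to 18013 CPM in IL-4 then LPS, against 20747 to 23128 CPM in LPS libraries, and their part in the result was not tested. At an unadjusted p under 0.05 there were 4 of the 50 and 8.5% of all genes. The 95% intervals held 0 for 46 of the 50 and lay within a 2-fold change for 30.

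Pml had the smallest p of these, with 269 and 273 CPM in IL-4 then LPS, against 375 and 357 CPM in LPS libraries, a log2 fold change of -0.43 ± 0.12 (p 0.00687, adjusted p 0.357). Oas1g had 124 and 116 CPM in IL-4 then LPS, against 184 and 165 CPM in LPS libraries (-0.54 ± 0.15, adjusted p 0.369), and Parp10, a mono-ADP-ribosyltransferase, had 158 and 176 CPM in IL-4 then LPS, against 249.9 and 261 CPM in LPS libraries (-0.61 ± 0.25, adjusted p 0.556). For all 3 the groups did not overlap. The largest negative values were those of Ifit3b (-0.96 ± 0.50, adjusted p 0.661) and Ifit3 (-0.77 ± 0.54, adjusted p 0.753), whose counts are shared in part. Without the filter on low counts these 2 genes passed, at -0.76 for Ifit3 (adjusted p 0.0118) and -0.95 for Ifit3b (adjusted p 0.000149). The most abundant genes gave Rsad2 -0.41 ± 0.64, Ifit2 -0.40 ± 0.66, Cmpk2 -0.34 ± 0.60 and Ifit1 -0.19 ± 0.66, all with wide errors. Ifnb1 had 42 and 15 reads in IL-4 then LPS, against 36 and 19 in LPS libraries, and its part in these values was not tested.

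**Figure D5:**
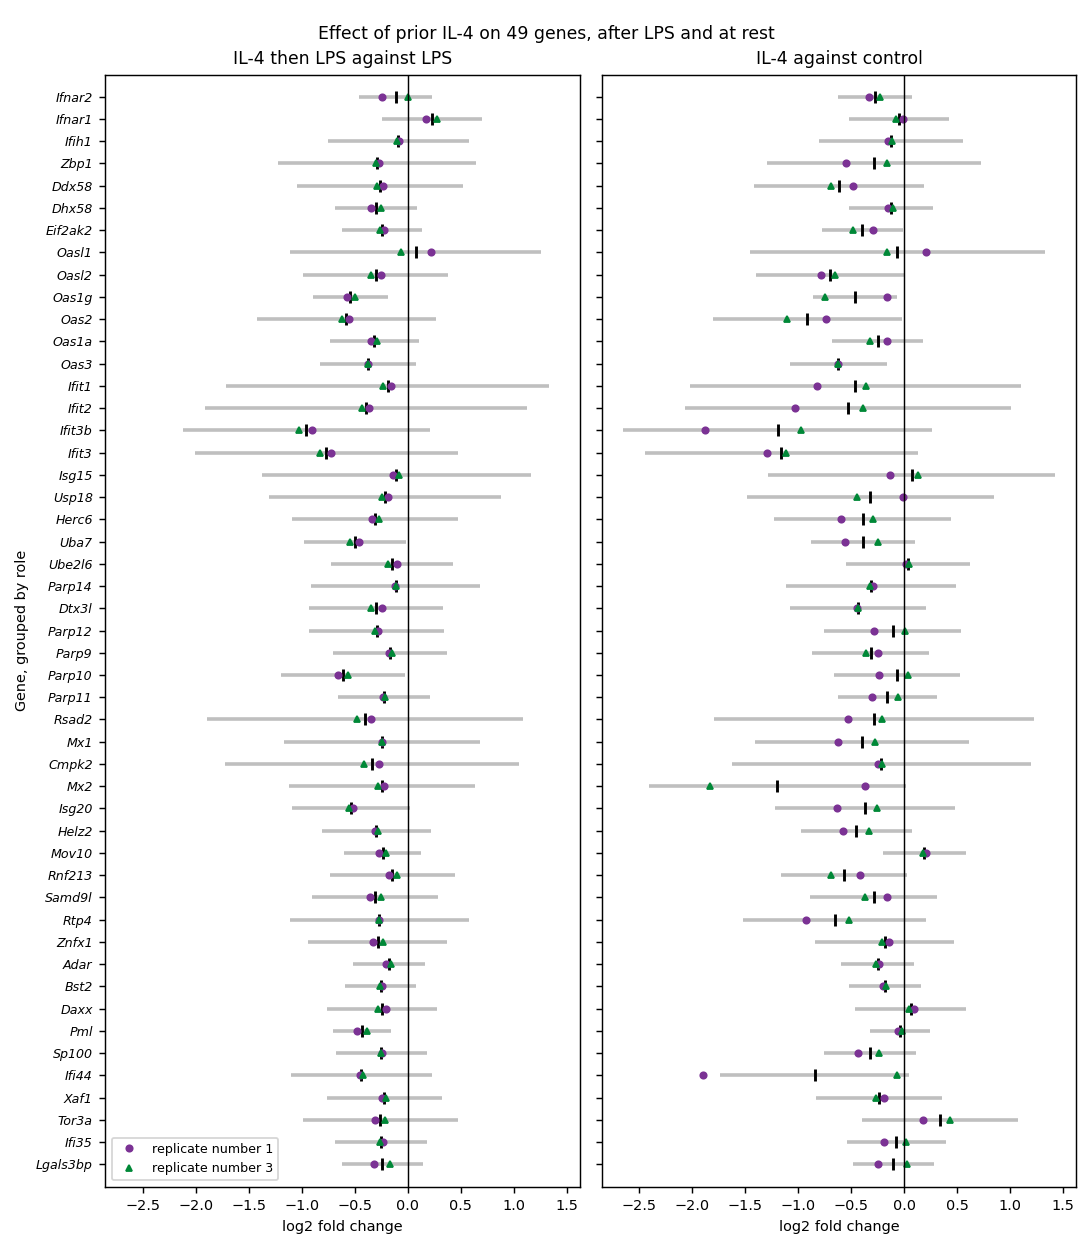
Log2 fold change of 49 genes (Ifnb1 left out) in IL-4 then LPS against LPS (left) and in IL-4 against control (right), with the 95% interval as a grey bar, the fitted value as a black tick, and the ratio within replicate number 1 as a circle and within number 3 as a triangle. On the left 47 fitted values lie below 0 and the points of both numbers lie close together, while on the right the points of the 2 numbers lie farther apart for genes such as Mx2 and Ifi44.

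The size of the LPS response itself did not differ detectably with IL-4. In the test of the difference between the responses, 0 of 50 passed in either direction by edgeR, as did 0 of all genes, and 0 of the 50 had an unadjusted p under 0.05, against 2.63% of all genes. DESeq2 also called 0 of the 50 there. The median difference was 0.07, with 28 positive and 22 negative. Over all 12234 genes it was -0.03, with 5577 positive and 6657 negative. All 50 of the 95% intervals held 0 and 21 lay within a 2-fold change. Leaving out a library moved the median between -0.27 and 0.51, the lowest without control replicate 3 and the highest without IL-4 replicate 3. Pml was the nearest to the threshold, with a difference of -0.39 ± 0.17 and an unadjusted p of 0.0505. LPS against control and IL-4 then LPS against LPS share the LPS libraries, as IL-4 against control shares the control libraries, so the values are set side by side and not correlated.

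Many other genes of the same pathway changed with LPS. Of 36 listed genes of interferon induction and signalling, 31 were tested; Ifna1, Ifna2, Ifna4 and Ifna5 did not pass the filter. In LPS against control 21 rose, 2 fell and 8 did not pass, with a median of 1.29, where 21.8% of all genes rose and 18.6% fell. Socs3 (7.42 ± 0.53) and Socs1 (6.64 ± 0.49), inhibitors of cytokine receptor signalling, Irf7 (4.57 ± 0.31) and Tlr3 (4.10 ± 0.21), a receptor for RNA duplexes, had the largest values. Stat2 rose by 3.29 ± 0.23 and Irf9 by 1.71 ± 0.15, both with adjusted p under the threshold, while Irf3, which acts upstream of Ifnb1, stood at 0.00 ± 0.18 (adjusted p 0.994). Beside them, 21 rose, 2 fell and 8 did not pass in IL-4 then LPS versus IL-4, where 20.7% of all genes rose and 18.6% fell. There Stat2 stood at 3.37, Irf9 at 1.85, Irf7 at 5.04 and Irf3 at -0.34 (adjusted p 0.167). None of the 31 passed in IL-4 then LPS against LPS (median -0.23) or in IL-4 against control (median -0.11). Few of all genes passed in these 2 comparisons, 0.049% and 0.0572% rising and 0.0163% and 0.00817% falling. Irf7, which amplifies interferon genes, had 744 and 734 CPM in IL-4 then LPS, against 977 and 993 CPM in LPS libraries, and 16.3 and 28.6 CPM in IL-4, against 34.1 and 49.1 CPM in control libraries (adjusted p 0.726 and 0.508).

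Of 52 other interferon-stimulated genes, 51 were tested. In LPS against control 47 rose and 0 fell (median 3.82), where 21.8% of all genes rose. In IL-4 then LPS versus IL-4, 46 rose and 0 fell, where 20.7% of all genes rose. Examples are the chemokine Cxcl10 (8.92 ± 1.02), Ifi205 (8.39 ± 0.56) and the guanylate-binding protein Gbp5 (7.91 ± 1.02) in LPS against control. None passed in IL-4 then LPS against LPS, where the median was -0.30 and 47 of 51 were negative, or in IL-4 against control, where it was -0.22. Listed NF-kB-dependent genes of the LPS response rose as well, 21 of 21 in each arm, with medians of 7.05 in LPS against control and 8.03 in IL-4 then LPS versus IL-4. None of these 21 passed in IL-4 then LPS against LPS, and their median was 0.21. Of the 21, 14 were positive and 7 negative, where 5616 of all 12234 genes were positive. The IL-4 response list describes the treatment but, chosen with earlier results of these data known, is no independent check of it. Of its 19 genes, 6 rose, 0 fell and 13 did not pass in IL-4 then LPS against LPS, where 0.049% of all genes rose. The counts in IL-4 against control were likewise 6, 0 and 13, where 0.0572% of all genes rose. Chil3, a chitinase-like protein of alternatively activated macrophages, rose by 6.36 ± 0.36 after LPS and by 5.67 ± 0.33 without it, and Retnla had 188 and 268 reads in IL-4 then LPS and 263 and 284 in IL-4 libraries, against 0 in the libraries without IL-4.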

How the data were processed

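RNA from 8 libraries of mouse bone marrow-derived macrophages was measured by RNA sequencing. The authors deposited 1 table of raw read counts per gene, whole numbers with gene symbols, coordinates and lengths. The genome build was mm10, and the tools named are HTSeq, HISAT2 and StringTie, per the submitters' processing notes. Their versions, the strand setting and the handling of reads with several matches are not given in the sources used here. The table's other 6 columns of counts match no label and were not used. Reads of overlapping genes or near-identical copies may be credited to either.

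The 50 genes, the role groups and the other gene lists were chosen with earlier results of these data known. Counts were analysed with edgeR 4.0.16 in R 4.3.3. The filter filterByExpr, given the groups, kept 12234 genes, and libraries were scaled by TMM factors (0.786 to 1.252). A quasi-likelihood model with 1 mean per group was fitted to all 8 libraries, which left 4 residual degrees of freedom (common dispersion 0.0402), and p-values were adjusted by the Benjamini-Hochberg method over all 12234 genes in each of 5 comparisons. Each SE was taken as the size of the log2 fold change over the root of its F statistic. Intervals of 95% use the t distribution with the fit's degrees of freedom. The procedure was tested on simulated data. Alternatives were DESeq2 1.42.0, other scaling, no filter on low counts, only the groups compared, a replicate block and each library left out.

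Genes given with values in every library were Ifnb1, Ifnar1, Ifnar2, the 2 with the largest LPS response in each role group, near-identical pairs, and the 3 with the smallest p where none was called. The other genes of the set are given by fold change and ranges. For 49 of the 50 genes GENCODE M21 has the start and end given in the table. Promoter windows are RefSeq's (GRCm38.p6). Some listed genes and 1 of the motifs searched are not reported here.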

Additional observations from a re-analysis of the deposited data

How the results depend on the processing

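The count of genes that rose with LPS was 50 under every setting in IL-4 then LPS versus IL-4, and 48 to 50 in LPS against control, with 48 under library totals alone and 49 to 50 with a library left out. With library totals alone the median of all genes was -0.615 in LPS against control and -0.557 in IL-4 then LPS versus IL-4, in place of -0.013 and -0.0364, and the medians of the set were 3.04 and 3.01. Upper-quartile factors gave 2044 rising and 3542 falling of all genes in LPS against control. In IL-4 then LPS versus IL-4 these were 1924 and 3426, and with library totals alone 1546 and 5321, in place of 2537 and 2271. In IL-4 against control the count was 0 except for 1 lower with the replicate block and 6 lower without the filter on low counts, among them Ifit3 (-1.16, adjusted p 8.61e-06) and Ifit3b (-1.19, adjusted p 0.00016). In IL-4 then LPS against LPS it was 0 except for 2 lower without that filter, and in the difference of responses it was 0 throughout. The cause was not tested. Over all genes, where 8 passed in IL-4 against control, DESeq2 called 110 and the fit without the filter 360. In IL-4 then LPS against LPS, where 8 passed too, these counts were 119 and 397, and in the difference of responses, where 0 passed, they were 5 and 53.

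With the replicate number as a block, Oas3 fell in IL-4 against control (-0.62 ± 0.11, adjusted p 0.0258), the 1 gene of the set called, and all-gene counts were 288 in IL-4 against control, 281 in IL-4 then LPS against LPS and 1 in the difference. The labels do not say what libraries of 1 number share. Same-numbered libraries deviated together from their group means (r = 0.377 to 0.552 over genes, 2 numbers only). The block changed no other call among the 50.

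Medians of the set were recomputed under alternatives chosen after seeing the data. In IL-4 then LPS against LPS the median was -0.196 with library totals, -0.267 with DESeq2's size factors in edgeR, -0.228 with upper-quartile factors, -0.253 without the filter, -0.267 with DESeq2 and -0.232 with the 2 groups alone. In the difference it was 0.157 with library totals. In IL-4 then LPS against LPS it was -0.285 to -0.259 with each library of the 2 groups compared left out. With each library left out, medians ran from 3.29 to 3.86 in LPS against control, 3.41 to 3.96 in IL-4 then LPS versus IL-4, -0.661 to 0.0078 in IL-4 against control (0.0078 without IL-4 replicate 1), -0.285 to -0.232 in IL-4 then LPS against LPS, and -0.265 to 0.514 in the difference (-0.23 without IL-4 replicate 1 and -0.265 without control replicate 3). At 2 libraries a group, half-widths of the 95% intervals had medians of 0.644 in IL-4 against control, 0.612 in IL-4 then LPS against LPS and 0.904 in the difference, on the log2 scale. Smaller changes of a typical gene would leave 0 within the interval. The intervals are not adjusted for the number of genes tested, so changes larger than these widths could miss the threshold too.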
